A study of Mus musculus with 8 samples.

Results

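The genes described here are 10 transcripts that mark the Leydig cell, the androgen-producing cell between the seminiferous tubules of the testis. They are Lhcgr, Scarb1, Star, Cyp11a1, Hsd3b1, Hsd3b6, Cyp17a1, Hsd17b3, Insl3 and Klk1b21. They were taken by symbol, and all 10 have a row among the 19276 rows of the gene table. The measurements are RNA-seq gene counts in 8 libraries of 4 groups, 2 libraries each, made to ask what loss of RNF17, a Tudor domain protein of male germ cells, does to RNA in the testis and which RNA an RNF17 antibody recovers. All mice were C57BL/6 aged 6 weeks. The groups were whole testis homozygous for the Rnf17 mutation, whole testis heterozygous for it, RNA immunoprecipitated (IP) from homozygous testis lysate with an antibody against RNF17, and the same IP from heterozygous lysate. There was no wild-type group, so the homozygotes were set against animals that carry 1 mutant copy. The labels neither describe the allele nor say that replicate libraries stand for different mice. All p-values below rest on the spread between 2 libraries per group, and that spread may be technical.

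Leydig cells make testosterone from cholesterol when luteinising hormone binds its receptor on their surface. Cholesterol is taken up from lipoprotein or made in the cell, carried into the mitochondrion and cut to pregnenolone, and enzymes of the endoplasmic reticulum then turn pregnenolone into androgen. The genes for these steps are textbook Leydig cell genes, and some of them are also active in the adrenal gland and the ovary.

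Gene reads per library ranged between 5661754 and 50575649. The 2 libraries of a group correlated, across 9534 genes that are not independent replicates, at r = 0.88 in homozygous testis, 0.791 in heterozygous testis, 0.969 in homozygous IP and 0.977 in heterozygous IP. Levels are given as CPM, read counts divided by the scaled library size, on 1 scale over all 8 libraries, for replicates 1 and 2 in that order. Rnf17 itself stood at 50.3 and 97.7 CPM in homozygous testis, against 507 and 551 CPM in heterozygous testis, so its RNA was lower but not absent in the homozygotes. It stood at 214 and 393 CPM in homozygous IP, against 1263 and 1189 CPM in heterozygous IP.

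The summed level of the 10 genes was 724 and 871 CPM in homozygous testis, against 312 and 393 CPM in heterozygous testis. In the IPs it was 517 and 305 CPM in homozygous IP, against 364 and 349 CPM in heterozygous IP. The testis groups did not overlap, and the heterozygous IP libraries lay between the homozygous IP libraries. In whole tissue, a larger share of Leydig cells and more of these RNAs per Leydig cell cannot be told apart.

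**Figure D1:**
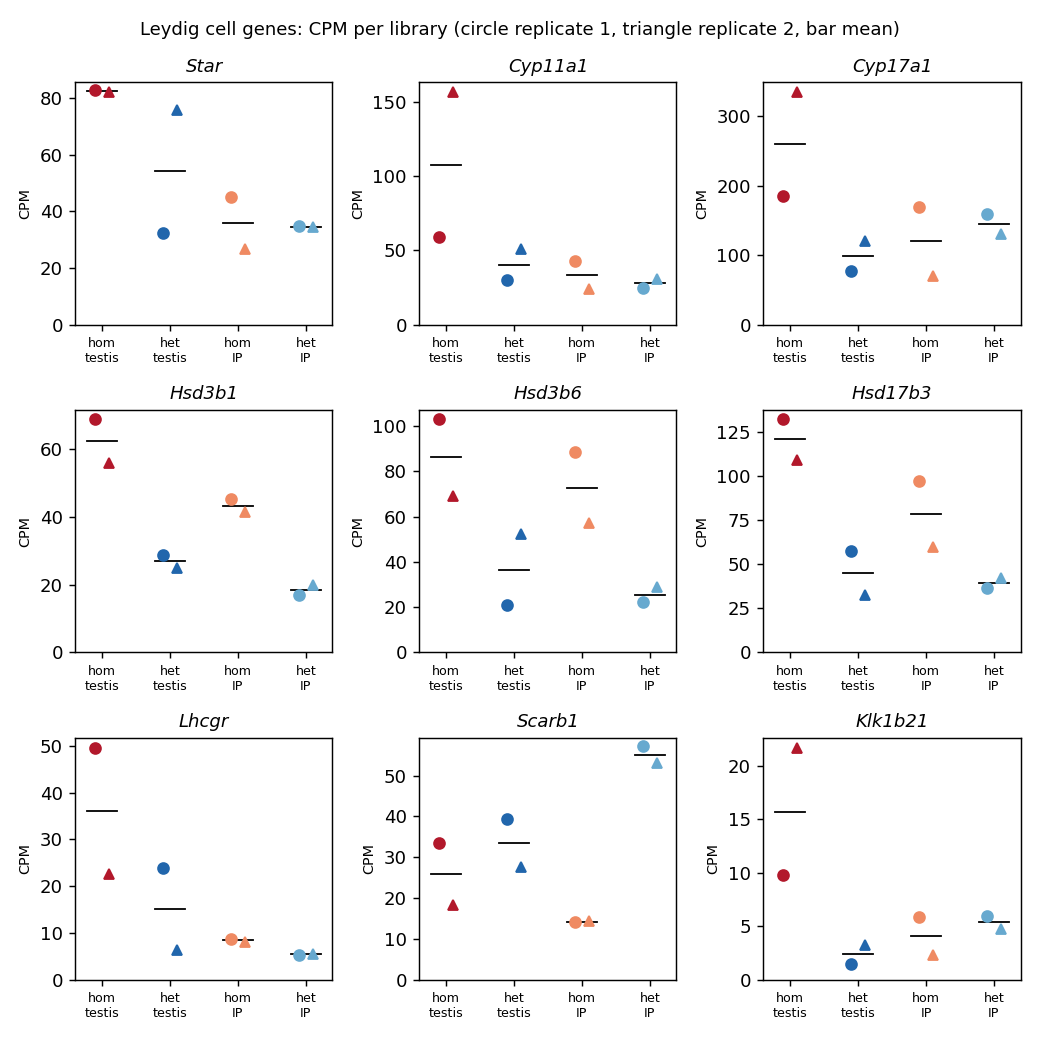
Level of the Leydig cell genes in each library, in CPM, with 1 point per library, a bar at the mean and the groups homozygous testis, heterozygous testis, homozygous IP and heterozygous IP. In testis, the homozygous points lie above the heterozygous ones for 7 of the 9 genes with reads.

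Homozygous testis was compared with heterozygous testis to ask what the loss of RNF17 does to the tissue. Of the 9 genes with reads, 8 had a log2 fold change above 0, against 51.9% of the 14332 genes tested. For 7 of the 9, both homozygous libraries exceeded both heterozygous libraries, against 20.3% of genes. The median log2 fold change was 1.26 over the 9 genes and 0.04 over all genes tested. No gene of the table passed the test in edgeR (0 called, 0% of 14332), and 1453 genes had an unadjusted p under 0.05. Among the 9 genes, 3 had an unadjusted p under 0.05 in the higher direction (Cyp17a1, Hsd17b3 and Klk1b21), against 1.98% of all genes. DESeq2 called 717 genes, 695 of them lower in homozygous testis (4.84%) and 22 higher (0.153%), and Klk1b21 was among the 22. These values depend on the scaling: with libraries scaled to Sertoli cell markers the median of all genes shifted by -0.61, the median of the 9 genes was 0.67, 7 of the 9 were above 0, and Star turned to -0.08.

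Lhcgr encodes the receptor for luteinising hormone, at the start of the pathway. It had 49.6 and 22.5 CPM in homozygous testis, against 23.8 and 6.43 CPM in heterozygous testis. The ranges overlapped, because the lower homozygous library was just under the higher heterozygous one. Its log2 fold change of 1.26 (SE 0.78) did not pass (edgeR adjusted p = 0.667). Leaving out 1 library moved it between 0.59 and 2.45.

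Scarb1 encodes the scavenger receptor that takes up cholesterol from high-density lipoprotein. It had 33.4 and 18.3 CPM in homozygous testis, against 39.3 and 27.6 CPM in heterozygous testis. It was the single one of the 9 genes with a fold change below 0, and its ranges overlapped, with a log2 fold change of -0.38 (SE 0.58, edgeR adjusted p = 0.879).

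Star encodes the protein that carries cholesterol to the inner mitochondrial membrane, the rate-limiting step. It had 82.9 and 82.1 CPM in homozygous testis, against 32.3 and 76.1 CPM in heterozygous testis. The homozygous libraries were nearly equal and the second heterozygous library came close to them, and the log2 fold change of 0.60 was about the size of its error (SE 0.60, edgeR adjusted p = 0.802). Leaving out 1 library moved it between 0.09 and 1.35.

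Cyp11a1 encodes the side chain cleavage enzyme that makes pregnenolone. It had 59.2 and 156.9 CPM in homozygous testis, against 29.8 and 50.8 CPM in heterozygous testis. The groups did not overlap, but the homozygous libraries were far apart, with a log2 fold change of 1.42 (SE 0.67, edgeR adjusted p = 0.546). It lay between 0.58 and 2.04 when 1 library was left out.

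Hsd3b1 and Hsd3b6 encode hydroxysteroid dehydrogenases that turn pregnenolone into progesterone, and Hsd3b6 is the form known from adult mouse Leydig cells. Hsd3b1 had 69.1 and 56.1 CPM in homozygous testis, against 28.8 and 24.9 CPM in heterozygous testis. Its groups were well apart, with a log2 fold change of 1.22 (SE 0.52, edgeR adjusted p = 0.5). Hsd3b6 had 103.1 and 69.3 CPM in homozygous testis, against 20.7 and 52.2 CPM in heterozygous testis. Its homozygous libraries were both higher, with a log2 fold change of 1.23 (SE 0.64, edgeR adjusted p = 0.6). Of the 50-base stretches of the Hsd3b6 transcript, 16% also occur in other genes, and 13.5% occur in Hsd3b2, which thus holds most of them; for Hsd3b1 the share found in other genes is 4.98%. How the authors treated reads that match several genes is not given in the sources used here, so the exact split between these paralogs is uncertain. Hsd3b2 was listed at 0 or 1 read in each library, against 124 to 3705 reads for Hsd3b6.

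Cyp17a1 encodes the hydroxylase and lyase that opens the way to androgens. It had 184.8 and 335.3 CPM in homozygous testis, against 77.5 and 119.6 CPM in heterozygous testis. The groups did not overlap, with a log2 fold change of 1.40 (SE 0.59, edgeR unadjusted p = 0.0485, adjusted p = 0.488). Hsd17b3 encodes the enzyme that makes testosterone from androstenedione, the last step. It had 132.6 and 109.3 CPM in homozygous testis, against 57.7 and 32.5 CPM in heterozygous testis. Each homozygous library was above both heterozygous ones, with a log2 fold change of 1.42 (SE 0.55, edgeR unadjusted p = 0.0371, adjusted p = 0.44).

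Insl3 encodes the peptide hormone of Leydig cells that guides testis descent. It was listed at 0 reads in all 8 libraries. A count of 0 allows up to 3 reads, or 0.0561 to 0.568 CPM depending on the library; this floor covers counting error only. In the reference annotation Insl3 lies on the same strand as Jak3, and 404 of its 623 exonic bases (64.8%) are inside Jak3 exons. Jak3, a kinase of cytokine receptors, had 1.02 and 1.78 CPM in homozygous testis, against 0.333 and 1.35 CPM in heterozygous testis. No level of Insl3 RNA can be given, and whether the overlap plays a part in the 0 was not tested.

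Klk1b21 encodes a kallikrein, a secreted serine protease that in mice is made in Leydig cells. It had 9.75 and 21.6 CPM in homozygous testis, against 1.5 and 3.25 CPM in heterozygous testis, from 96 and 1156 reads in the homozygous libraries against 9 and 48 reads in the heterozygous ones. Both homozygous libraries were 3.0 or more times either heterozygous library, and the log2 fold change of 2.69 was the highest of the 9 genes (SE 0.75, edgeR adjusted p = 0.233, DESeq2 adjusted p = 0.014). With 1 library left out it lay between 2.03 and 3.39. The authors' deposited table lists 734 genes as different in homozygous testis. In it, Klk1b21 is the 1 entry among the 10 genes, with mean normalised counts of 231 in homozygous and 35 in heterozygous testis. The same deposited table of the authors gives it a log2 fold change of 1.89 and an adjusted p of 0.0223. That fold change is smaller than the log2 ratio of the authors' own means. The reason was not tested, so it is not set against the 2.69 above.

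**Figure D2:**
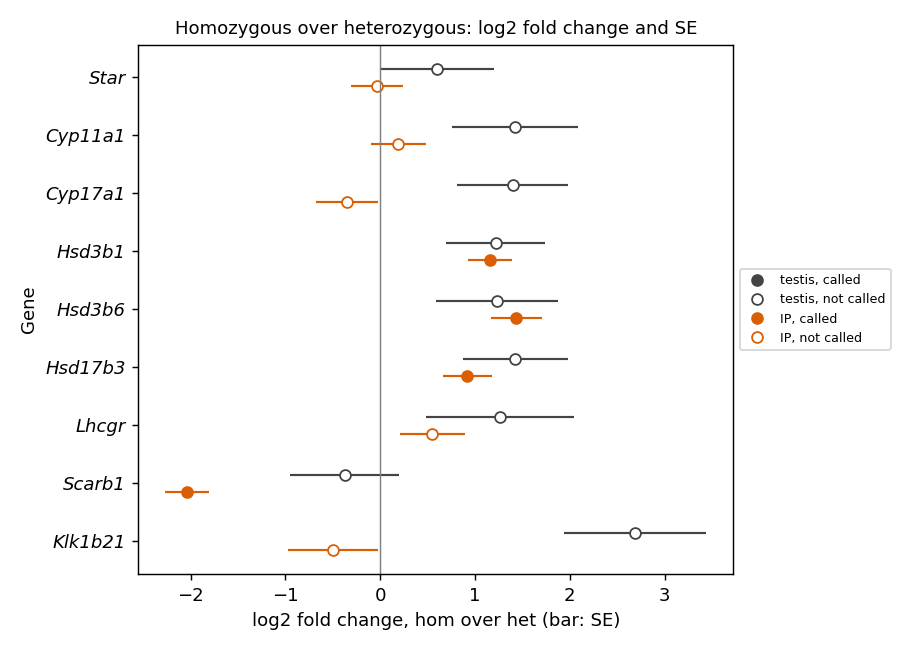
Log2 fold change of homozygous over heterozygous, with the SE from edgeR as bars, for each Leydig cell gene in testis and in the RNF17 IP; 0 means equal levels and filled points passed the test. In testis Klk1b21 lies farthest right at 2.69, and in the IP Hsd3b6 lies at 1.44 and Scarb1 at -2.03.

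Klk1b21 sits in a cluster of kallikrein genes on chromosome 7, and its paralogs had log2 fold changes on both sides of 0 in testis. Of 13 paralogs in the table, 6 were tested in testis. Of these, 3 were above 0, against 51.9% of all genes, and their median log2 fold change was -1.52. DESeq2 called 3 paralogs lower and 0 higher, against 4.84% and 0.153% of all genes. The 3 paralogs Klk1b22, Klk1b24 and Klk1b27 had log2 fold changes of 2.61, 2.12 and 2.54, none past the test (edgeR adjusted p = 0.24, 0.448 and 0.31). Klk1b24, for example, had 3.86 and 14.8 CPM in homozygous testis, against 1.5 and 2.71 CPM in heterozygous testis. Klk1b8 went the other way, with 0.812 and 0.449 CPM in homozygous testis, against 18.5 and 74.2 CPM in heterozygous testis (log2 fold change -6.28, SE 0.98, edgeR adjusted p = 0.133, DESeq2 adjusted p = 4.26e-11). Leaving out 1 library gave Klk1b8 log2 fold changes between -7.01 and -4.96. Klk1b9 had 0.406 and 0 CPM in homozygous testis, against 1.83 and 6.84 CPM in heterozygous testis. Of the 50-base stretches of Klk1b21, 29.1% occur in another gene, and 20.6% occur in Klk1b24, so reads may be split or shared among them.

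The promoters of Klk1b21, of its paralogs Klk1b22, Klk1b24 and Klk1b27, with log2 fold changes above 0 in testis, and of Klk1b8, with one below 0, are shown to set their letters side by side. Each window covers 250 bases before and 50 after the annotated start (RefSeq, GRCm38.p6), on the plus strand. Capitals mark a match to TGTACANNNGGTACA, letters taken from the Klk1b21 window itself with the middle left free, chosen after the sequences were seen.
Klk1b21 (chr7:44102042-44102341): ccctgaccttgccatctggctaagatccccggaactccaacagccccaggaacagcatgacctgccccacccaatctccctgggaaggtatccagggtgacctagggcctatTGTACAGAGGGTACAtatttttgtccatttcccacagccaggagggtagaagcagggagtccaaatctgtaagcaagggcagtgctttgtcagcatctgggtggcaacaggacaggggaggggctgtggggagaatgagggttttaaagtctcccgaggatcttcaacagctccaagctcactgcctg
Klk1b22 (chr7:44112423-44112722): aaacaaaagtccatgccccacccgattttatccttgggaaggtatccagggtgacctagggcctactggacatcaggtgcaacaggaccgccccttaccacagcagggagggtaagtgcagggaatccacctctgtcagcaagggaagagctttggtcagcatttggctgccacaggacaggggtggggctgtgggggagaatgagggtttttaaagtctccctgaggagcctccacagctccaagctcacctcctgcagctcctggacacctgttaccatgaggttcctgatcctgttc
Klk1b24 (chr7:44187986-44188285): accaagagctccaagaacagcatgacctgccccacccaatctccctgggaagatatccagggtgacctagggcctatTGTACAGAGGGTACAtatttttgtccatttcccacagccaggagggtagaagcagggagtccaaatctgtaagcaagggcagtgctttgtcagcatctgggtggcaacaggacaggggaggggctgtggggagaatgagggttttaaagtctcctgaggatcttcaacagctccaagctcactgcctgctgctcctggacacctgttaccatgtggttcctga
Klk1b27 (chr7:44052040-44052339): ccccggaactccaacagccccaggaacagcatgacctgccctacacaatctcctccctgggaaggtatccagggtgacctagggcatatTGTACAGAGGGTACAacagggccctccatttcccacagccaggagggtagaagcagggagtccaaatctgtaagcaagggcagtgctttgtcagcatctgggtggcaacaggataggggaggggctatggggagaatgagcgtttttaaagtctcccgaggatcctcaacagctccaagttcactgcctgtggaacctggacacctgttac
Klk1b8 (chr7:43950416-43950715): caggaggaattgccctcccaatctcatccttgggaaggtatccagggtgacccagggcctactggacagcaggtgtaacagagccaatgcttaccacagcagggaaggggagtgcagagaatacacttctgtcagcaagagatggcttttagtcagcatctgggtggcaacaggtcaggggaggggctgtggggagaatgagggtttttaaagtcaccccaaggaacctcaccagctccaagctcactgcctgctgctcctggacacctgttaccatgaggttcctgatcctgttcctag

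The Klk1b21 window was 97.7% identical to that of Klk1b24, 92.8% to that of Klk1b27, 78.3% to that of Klk1b22 and 78.9% to that of Klk1b8 over the aligned bases. The Klk1b22 window was closest to that of Klk1b8, at 83.9%. The motif was found on either strand in 6 of 32851 promoter windows (0.0183%), those of Klk1b21, Klk1b24, Klk1b27, Klk1b16, Frmd4a and Vmn1r17. Carrying it did not go with the testis values throughout: Klk1b22, at a log2 fold change of 2.61, lacks it. Klk1b16 carries it but was not tested in testis. It had 2 and 19 reads in homozygous testis, against 2 and 4 reads in heterozygous testis, too few to tell. Near-identical windows share most of their letters, so a shared match is a description only. The letters AAGGTCA, a form of the site known for the steroidogenic factor NR5A1, were found on either strand in 4.72% of windows and in 1 of the 7 Leydig cell genes with a window, Klk1b21.

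**Figure D3:**
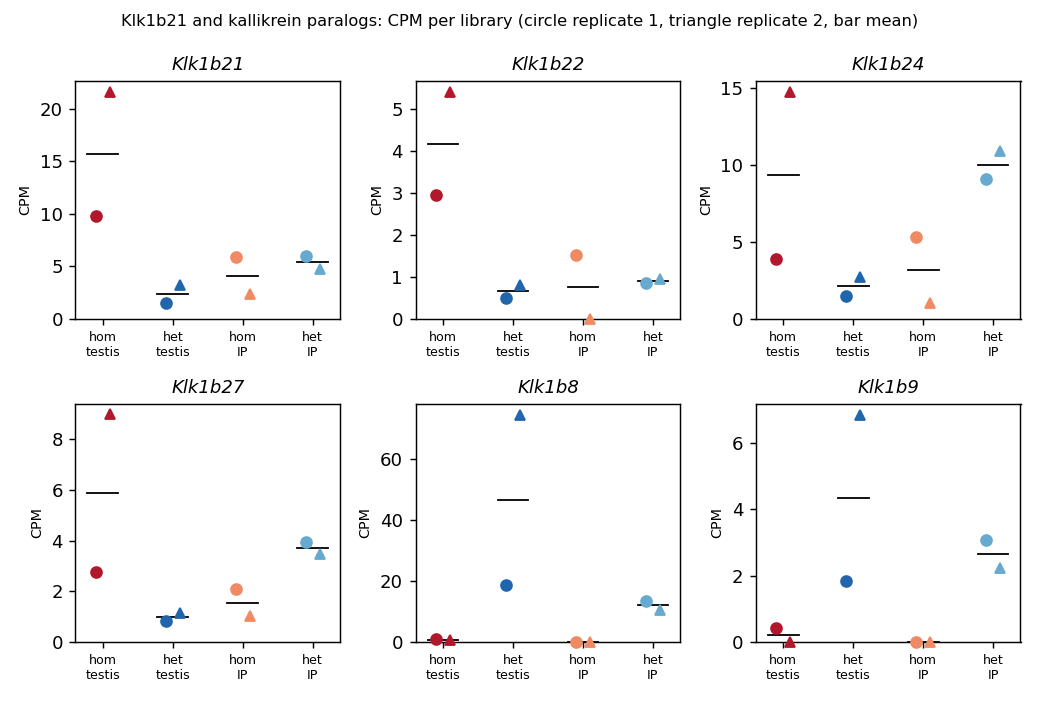
Level of Klk1b21 and its kallikrein paralogs in each library, in CPM, by group. Klk1b21 reached 9.75 and 21.6 CPM in homozygous testis, while Klk1b8 reached 18.5 and 74.2 CPM in heterozygous testis and was at 0 in both homozygous IP libraries.

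Other genes of the pathway were counted from lists. These counts are to be read against all genes, of which 51.9% were above 0. DESeq2 called 0.153% of all genes higher and 4.84% lower. Of 24 tested genes of receptor signalling and cholesterol import, 18 had a log2 fold change above 0 in homozygous against heterozygous testis, with a median of 0.37, and edgeR called none (DESeq2 called 2, both lower). Those 2 were Akap1, a mitochondrial anchor for protein kinase A, and Lipe, the hormone-sensitive lipase. Elongating spermatid markers had a median of -4.87 in this comparison, and which testis cells the Akap1 and Lipe RNA came from was not tested. Akap1 had 20.5 and 29.8 CPM in homozygous testis, against 157 and 685 CPM in heterozygous testis. Lipe had 14.3 and 10.2 CPM in homozygous testis, against 52.0 and 104.5 CPM in heterozygous testis. With 1 library left out, the log2 fold change of Akap1 lay between -4.79 and -2.64 and that of Lipe between -3.13 and -2.09. The genes with the highest means on that list, Pde8a, a cyclic AMP phosphodiesterase, and Gramd1b, a sterol carrier, had log2 fold changes of 0.03 and 0.06, both of which turned below 0 with scaling to Sertoli cell markers. Of 18 genes of cholesterol synthesis, 10 were above 0, with a median of 0.50 and none called by either tool. Fdft1, squalene synthase, had a log2 fold change of -1.18.

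Among 14 electron donors and transcription factors of steroid synthesis, 11 were above 0, with a median of 0.50 and none called by either tool. The same shares of all genes apply in this paragraph: 51.9% above 0, and 0.153% called higher and 4.84% called lower by DESeq2. Cyb5b had a log2 fold change of 0.30, which was -0.32 with scaling to Sertoli cell markers, and Cyb5r3 one of -0.06. Nr5a1, the factor that drives many steroid enzyme genes, had 63.3 and 36.8 CPM in homozygous testis, against 20.8 and 9.62 CPM in heterozygous testis; it was singled out after its values were seen (edgeR adjusted p = 0.416). Among 15 genes of androgen metabolism and action, 11 were above 0, with a median of 0.58. EdgeR called none and DESeq2 called Shbg higher and Cyp19a1 lower. Shbg had 23 and 189 reads in homozygous testis, against 0 and 5 reads in heterozygous testis, so its call rests on few reads there. Cyp19a1, the aromatase that makes oestrogen, had 2.13 and 1.40 CPM in homozygous testis, against 11.0 and 14.8 CPM in heterozygous testis. Akr1cl and Hsd17b4 had log2 fold changes of 1.28 and 0.69. Among 19 other Leydig cell genes, 15 were above 0, with a median of 0.77; edgeR called none, and DESeq2 called 1, Gstm2, higher. Prlr, the prolactin receptor, had a log2 fold change of 0.60. Of the hydroxysteroid dehydrogenase paralogs, Hsd3b7 was tested, at 0.31, and it turned below 0 with scaling to Sertoli cell markers.

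Markers of the other somatic cells in the testis had no call by edgeR or DESeq2 in this comparison, and 51.9% of all genes were above 0. Sertoli cell markers summed to 1987 and 2157 CPM in homozygous testis, against 1133 and 1357 CPM in heterozygous testis, with 21 of 25 tested above 0 and a median log2 fold change of 0.77; Clu and Cst12 had 1.34 and 0.77. Peritubular myoid markers, smooth muscle genes such as Mylk (0.80) and Myh11 (1.13), summed to 455 and 317 CPM in homozygous testis, against 235 and 180 CPM in heterozygous testis, with 10 of 10 above 0 and a median of 0.92. Macrophage markers had a median of 0.71, with 12 of 13 above 0, Mrc1 at 0.55 and Cd163 at -0.66. Endothelial markers had a median of 0.15, with 6 of 9 above 0, Cdh5 at 0.66 and Vwf at -0.99. Of 7 listed adrenal and fetal steroid cell markers, only Mrap had enough reads to be tested, with 0.61. With scaling to Sertoli cell markers, which shifted the median of all genes by -0.61, Mrc1 and Mrap turned below 0, and the endothelial median of 0.15 is smaller than that shift.

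Spermatid markers had medians below 0, and edgeR called none of them. Of all genes, 51.9% were above 0, and DESeq2 called 4.84% lower. Elongating spermatid markers summed to 2202 and 2996 CPM in homozygous testis, against 9187 and 37120 CPM in heterozygous testis, with 14 of 14 below 0, a median of -4.87 and 13 called lower by DESeq2. Tnp1, a transition protein that replaces histones, had a log2 fold change of -7.26 and Odf2, of the sperm tail, one of -1.78. Round spermatid markers had a median of -2.36, with 1 of 15 above 0 and 7 called lower by DESeq2, Hook1 at -2.36 and Dpy19l2 at -1.29. Pachytene spermatocyte markers had a median of -0.31, with 2 of 15 above 0, Clgn at -0.62 and Ldhc at -0.20. The part of these markers' values in those of the Leydig cell genes and of the pathway lists was not tested.

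**Figure D4:**
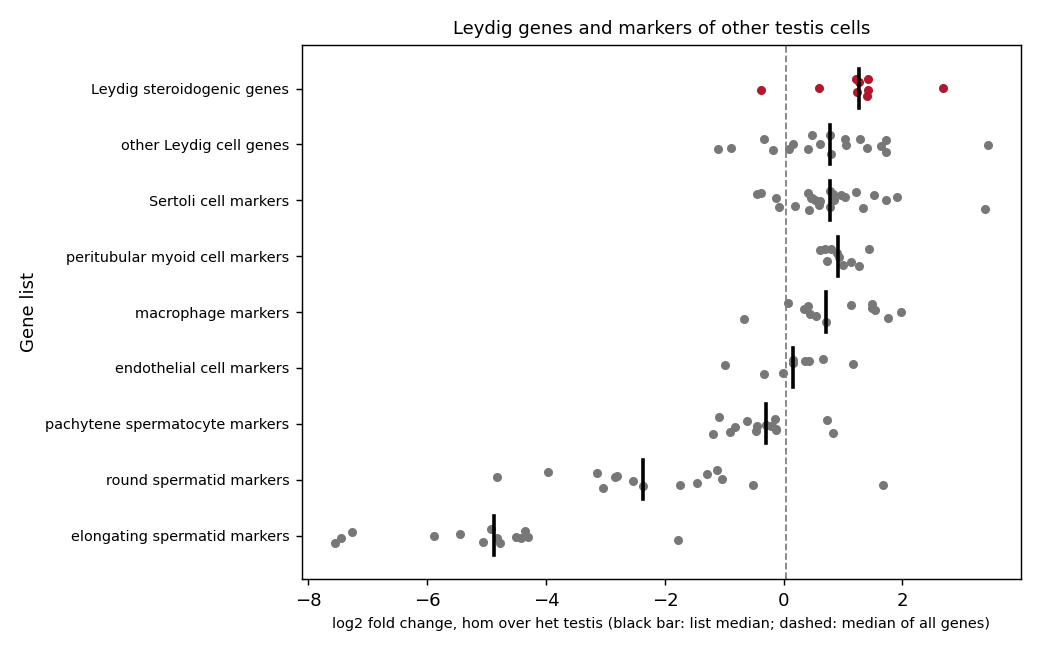
Log2 fold change of homozygous over heterozygous testis for each tested Leydig cell gene and cell type marker, with 1 point per gene, a black bar at the median of each list and a dashed line at the median of all genes. The Leydig cell genes have a median of 1.26, Sertoli cell markers 0.77, peritubular myoid markers 0.92 and elongating spermatid markers -4.87.

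Homozygous IP was compared with heterozygous IP. Here the libraries of a group were closer to each other, and edgeR called 4042 of 13427 genes (30.1%). Among the 9 genes with reads, 4 were called: Hsd3b1, Hsd3b6 and Hsd17b3 were higher in homozygous IP (12.4% of all genes were called higher) and Scarb1 was lower (17.7% were called lower). Of the 9 genes, 5 were above 0, against 48.4% of genes, and for 4 both homozygous libraries exceeded both heterozygous ones, against 36.1%. The median log2 fold change was 0.19 over the 9 genes and -0.03 over all genes tested.

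Hsd3b1 had 45.2 and 41.4 CPM in homozygous IP, against 16.9 and 19.8 CPM in heterozygous IP. It rose with both homozygous libraries above both heterozygous ones, by a log2 fold change of 1.16 (SE 0.24, edgeR adjusted p = 0.0036). Hsd3b6 had 88.4 and 57.2 CPM in homozygous IP, against 22.3 and 28.7 CPM in heterozygous IP. It rose by a log2 fold change of 1.44, again with no overlap (SE 0.26, edgeR adjusted p = 0.00194). Hsd17b3 had 97.1 and 59.9 CPM in homozygous IP, against 36.3 and 42.2 CPM in heterozygous IP. It rose by a log2 fold change of 0.92 (SE 0.26, edgeR adjusted p = 0.0188), a call lost without replicate 1 of homozygous IP (0.56, adjusted p = 0.0706) and without replicate 1 of heterozygous IP (0.81, adjusted p = 0.101). With scaling to Sertoli cell markers, Hsd3b1 (0.76, edgeR adjusted p = 0.0658) and Hsd17b3 (0.48, edgeR adjusted p = 0.265) did not pass.

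Scarb1 had 14.2 and 14.3 CPM in homozygous IP, against 57.2 and 53.1 CPM in heterozygous IP. It fell, with all 4 libraries tight around their group, by 2.03 on the log2 scale (SE 0.23, edgeR adjusted p = 7e-05), and this call was kept in every alternative run.

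The other 5 genes did not pass. Lhcgr had 8.70 and 8.18 CPM in homozygous IP, against 5.34 and 5.55 CPM in heterozygous IP, with no overlap and a log2 fold change of 0.55 (SE 0.34, edgeR adjusted p = 0.25). Star had 45.0 and 26.7 CPM in homozygous IP, against 34.8 and 34.4 CPM in heterozygous IP. Cyp11a1 had 43.1 and 24.0 CPM in homozygous IP, against 25.0 and 30.6 CPM in heterozygous IP. For Star and Cyp11a1 the heterozygous IP values lay inside the homozygous range. Cyp17a1 had 169.5 and 70.6 CPM in homozygous IP, against 159.7 and 129.8 CPM in heterozygous IP. Its homozygous libraries were 1 above and 1 below both heterozygous ones. Without replicate 1 of homozygous IP its log2 fold change was -1.09, against -0.35 with all libraries. Klk1b21 had 5.87 and 2.34 CPM in homozygous IP, against 5.99 and 4.75 CPM in heterozygous IP, with overlapping ranges and a log2 fold change of -0.50 (SE 0.47, edgeR adjusted p = 0.462).

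Among the kallikrein paralogs, 3 of 4 tested fell in homozygous IP. Klk1b8 had 0 reads in both homozygous IP libraries, against 13.4 and 10.5 CPM in heterozygous IP, at least 44.8-fold lower (floor of 3 reads over the group; edgeR adjusted p = 2.95e-05). Klk1b9 also had 0 reads in homozygous IP, against 3.09 and 2.22 CPM in heterozygous IP, at least 9.98-fold lower (edgeR adjusted p = 0.0017). Klk1b24 fell by 1.77 on the log2 scale (edgeR adjusted p = 0.0299), with values between -3.34 and -0.99 when 1 library was left out, and it did not pass without replicate 2 of homozygous IP (adjusted p = 0.066).

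The counts of the pathway lists are to be read against the 12.4% of all genes called higher and the 17.7% called lower. In these lists, 3 of 24 genes of receptor signalling and cholesterol import rose in homozygous IP and 3 fell. Akap1 (-3.39) and Lipe (-2.24) fell, and Adcy9, which makes cyclic AMP, rose (1.33). Of 19 cholesterol synthesis genes, 2 rose, Mvk (1.82) and Sc4mol (0.98), and 1 fell, Fdps (-1.54). Of 13 electron donors and transcription factors, 2 rose and 2 fell; Cyb5r3 (1.72) and Fdxr, ferredoxin reductase (1.04), rose, and the nuclear receptor gene Nr4a1 (-1.03) fell. Of 13 genes of androgen metabolism and action, 2 rose, Sult1e1 (2.26) and Akr1cl (0.82), and 1 fell, Cyp19a1 (-1.61). Of 18 other Leydig cell genes, 8 rose and 0 fell (DESeq2 7 higher and 0 lower; 13 and 0 at an unadjusted p under 0.05), with a median log2 fold change of 0.81. They included Sult1e1, an oestrogen sulfotransferase, Pdgfra (1.59) and Igf1 (1.38). Hsd3b7 had -0.07 and did not pass. Without replicate 1 of heterozygous IP, 5 of these calls were lost: Mvk (1.56, edgeR adjusted p = 0.128), Sc4mol (0.90, adjusted p = 0.141), Fdxr (1.02, adjusted p = 0.0576), Nr4a1 (-0.77, adjusted p = 0.279) and Akr1cl (0.58, adjusted p = 0.247). Akr1cl was also lost without replicate 1 of homozygous IP (0.41, edgeR adjusted p = 0.178). With scaling to Sertoli cell markers, Sc4mol, Fdxr, Akr1cl and Gstm2 did not pass (edgeR adjusted p = 0.188, 0.109, 0.419 and 0.154).

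Among cell type markers the same background of 12.4% higher and 17.7% lower applies. Sertoli markers summed to 1988 and 1427 CPM in homozygous IP, against 1054 and 1003 CPM in heterozygous IP; 7 of 25 rose, among them Aard (1.03), Cst12 (1.05) and Defb45 (1.40). Without replicate 1 of heterozygous IP, Defb45 (1.09, edgeR adjusted p = 0.107) and the pachytene marker Sycp3 (0.80, edgeR adjusted p = 0.0732) did not pass. With scaling to Sertoli cell markers, Aard, Cst12, Clgn and Sycp3 did not pass (edgeR adjusted p = 0.152, 0.158, 0.119 and 0.261). Of 10 peritubular myoid markers 5 rose, with Myh11 at 1.56, Tpm2 at 1.69 and Lmod1 at 1.98. Of 12 macrophage markers Itgam rose (2.07) and Emr1 fell (-1.94), and of 6 endothelial markers Vwf fell (-2.82). Of 7 listed adrenal and fetal steroid cell markers, only Mrap had enough reads to be tested, and it rose (2.40). Elongating spermatid markers summed to 1476 and 1681 CPM in homozygous IP, against 9309 and 8844 CPM in heterozygous IP, and 14 of 14 fell, with Prm1 at -7.78, Prm2 at -7.63 and Tnp1 at -6.67. Of 15 round spermatid markers 11 fell, Acrv1 (-2.82), Catsper1 (-2.50) and Acsbg2 (-2.57) among them, and 2 rose. Of 15 pachytene markers 4 rose, Clgn (1.38) and Sycp3 (0.96) among them, and Piwil1 fell (-1.13). Their part in the values of the Leydig cell genes and of the pathway lists was not tested.

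Each IP was then compared with the testis libraries of its genotype, which addresses whether the antibody recovered an RNA above its level in the tissue. In homozygotes, all 9 genes had a log2 fold change below 0 (IP over testis), while 49.3% of all genes were above 0. Their median was -1.12, against -0.01 over all genes. For 8 of the 9, both IP libraries were below both testis libraries, against 28% of genes; Hsd3b6 was the exception. EdgeR called 438 of 13334 genes (3.28%), 193 of them lower in the IP (1.45%). Of the 9 genes it called Lhcgr, which fell by 2.10 on the log2 scale (SE 0.49, edgeR adjusted p = 0.0417). That call was lost without replicate 1 or 2 of homozygous IP (log2 fold changes of -2.13 and -2.04, adjusted p = 0.16 and 0.318), with the fold about the same size, and with scaling to Sertoli cell markers (adjusted p = 0.183). DESeq2 called Star, Cyp11a1, Lhcgr and Klk1b21 lower, 4 of the 9 against 5.15% of genes. The median of the 9 was -1.21 without replicate 1 of homozygous testis and -0.90 without replicate 2. With scaling to Sertoli cell markers, which shifted the median of all genes by 0.61, Hsd3b1 and Hsd3b6 turned to 0.10 and 0.37.

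In heterozygotes, edgeR called no gene (0 called, 0% of 13562; 2460 at an unadjusted p under 0.05; 602 called by DESeq2, 4.95%), and none of the 9 genes was called by either tool. The median log2 fold change over the 9 genes was -0.47, against -0.04 over all genes. Without replicate 1 of heterozygous testis the median of the 9 was -0.22, against 0.08 over all genes. Without replicate 2 of heterozygous testis it was 0.05, against 0.06 over all genes. Cyp17a1 (0.60, SE 0.37), Scarb1 (0.73, SE 0.42) and Klk1b21 (1.19, SE 0.54) were higher in both heterozygous IP libraries than in both testis libraries, as were 28.1% of all genes. Hsd3b1 (-0.53, SE 0.40) and Lhcgr (-1.48, SE 0.75) were lower in both, as were 24.9% of all genes. Klk1b21, for example, had 5.99 and 4.75 CPM in heterozygous IP, against 1.5 and 3.25 CPM in heterozygous testis.

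**Figure D5:**
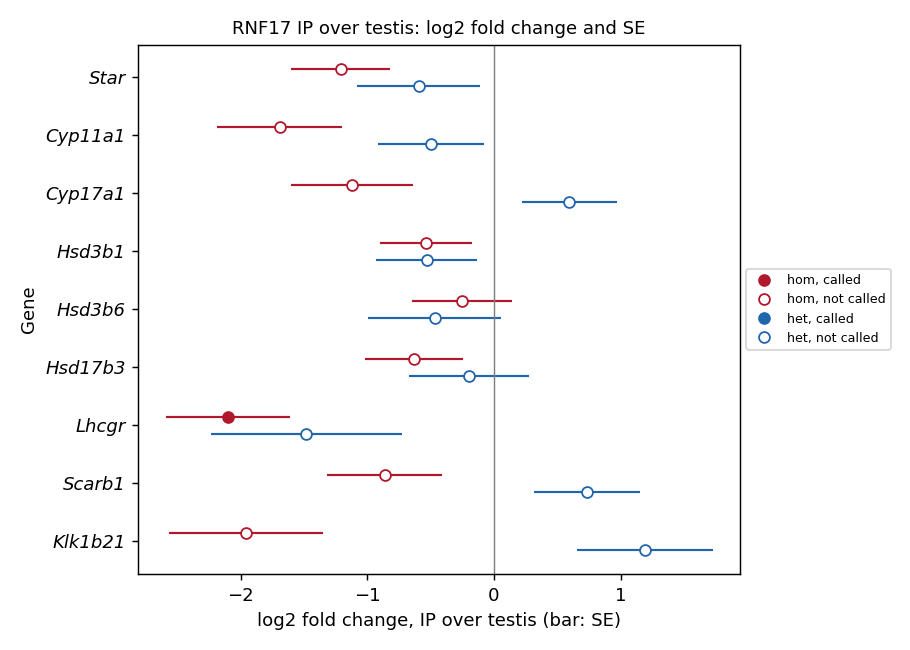
Log2 fold change of IP over testis, with the SE from edgeR as bars, for each Leydig cell gene in homozygotes and in heterozygotes; filled points passed the test. All 9 homozygous points lie below 0, while Cyp17a1, Scarb1 and Klk1b21 lie above 0 in heterozygotes.

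The difference between the IP to testis ratios, homozygous minus heterozygous, was tested as an interaction over all 8 libraries. EdgeR called none of 14180 genes (0 called, 0%; 1373 at an unadjusted p under 0.05; DESeq2 242). Hsd3b1 had an interaction of 0.02 (SE 0.47) and Hsd3b6 one of 0.28 (SE 0.70). The other 7 genes were below 0 (49.1% of all genes were above 0), between -0.43 for Hsd17b3 and -3.08 for Klk1b21. For 3 of them the unadjusted p was under 0.05, against 3.6% of genes that were lower at that level. They were Klk1b21 (SE 0.90, adjusted p = 0.36), Scarb1 (-1.58, SE 0.58, adjusted p = 0.443) and Cyp17a1 (-1.67, SE 0.71, adjusted p = 0.499), and none passed edgeR's test after adjustment. The ratios of each genotype share no library with those of the other, but the genotype and IP comparisons above share libraries and are not independent of each other.

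Levels per kilobase of exon ranked the genes against each other within a group. In testis Cyp17a1 had rank 1 and Hsd17b3 rank 2, with 107.5 ± 44.0 and 91.4 ± 12.5 CPM per kb in homozygous testis, against 40.8 ± 12.3 and 34.1 ± 13.4 CPM per kb in heterozygous testis (SD, n = 2 each). The libraries of these top genes overlapped in both groups, so their order was not resolved. Lhcgr was last of the 9, with 5.28 ± 2.80 CPM per kb in homozygous testis and 2.22 ± 1.80 CPM per kb in heterozygous testis. Neighbours in the order overlapped in 4 of the 8 steps in homozygous testis and in 7 of the 8 steps in heterozygous testis. Klk1b21 had rank 7 in homozygous testis and rank 8 in heterozygous testis, and Scarb1 had rank 7 in homozygous IP and rank 3 in heterozygous IP (5.66 ± 0.04 against 21.9 ± 1.15 CPM per kb). Exon lengths came from the GRCm38.p6 annotation, which may differ from the gene models of the authors.

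The genes outside the 10 whose log2 CPM over the 8 libraries most resembled their mean profile (over 8 of the 10 genes, 9526 genes compared) were Trim25 (r = 0.985), 4933402E13Rik (0.982), Usp22 (0.978), Elf4 (0.975) and Brd1 (0.965). Trim25 had 26.5 and 30.5 CPM in homozygous testis, against 13.3 and 14.0 CPM in heterozygous testis, and 17 and 12.9 CPM in homozygous IP, against 12.0 and 12.8 CPM in heterozygous IP. All 8 points come from 4 groups, so these values of r describe how the groups differ.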

How the data were processed

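RNA-seq of whole testis and of RNF17 immunoprecipitates was deposited as whole-number read counts per gene, made by the authors; the submitters' processing notes name STAR, DESeq and build mm9, without versions or rules for counting. Lysate columns of the IP table repeat the testis columns: 4 of 4 repeated columns were identical and were used once, and 0 columns were left unmapped. A second deposited table, of genes the authors list as different, holds per the file headers the average normalised signal of either genotype, log2 fold changes, a score (their standard errors) and p-values. Its values appear only where the table is named. Groups and replicate numbers came from the sample titles.

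The 10 genes and all lists were chosen with earlier results of these data known. The test on counts was edgeR 4.0.16's quasi-likelihood F test (R 4.3.3; TMM scaling, filterByExpr, Benjamini-Hochberg adjustment over all genes tested, called under 0.05), each pair of groups on its own 4 libraries and the interaction on all 8. A log2 fold change is homozygous over heterozygous, or IP over testis, and its SE is the one implied by the edgeR test. Levels are CPM with TMM library sizes of the fit on all 8 libraries, at most 0.0837 log2 units from the scale of any comparison. Alternatives were DESeq2 1.42.0, RLE scaling, no filter, a replicate block, scaling to Sertoli cell markers and leaving out each library. The edgeR test of each pair of groups was tried on simulated data, and the interaction, DESeq2 and the other alternatives were not.

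Named from each list were up to 3 called genes with the smallest adjusted p, or else the 2 with the highest mean (1 such gene is not reported here); Klk1b9, Klk1b22, Klk1b27, Akap1, Lipe, Shbg, Cyp19a1, Gstm2, Nr5a1 and Jak3 were added in testis after their values were seen. Lists are given for the genotype comparisons only. No label pairs the replicate numbers. Gene names, lengths, overlaps and promoters came from GENCODE and RefSeq annotation of GRCm38.p6, and none of its coordinates was used on the counts. Floors are 3 reads.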

Additional observations from a re-analysis of the deposited data

Results flagged for a closer look

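For 3 of the 9 genes, both IP libraries were below both testis libraries in homozygotes and above both in heterozygotes. They were Klk1b21, Scarb1 and Cyp17a1. Over all genes tested, 28% were below in homozygotes and 28.1% were above in heterozygotes. The share of all genes with both was not counted, so whether 3 of 9 is unusual cannot be said. The interaction, the log2 IP to testis ratio in homozygotes minus that in heterozygotes, was -3.08 for Klk1b21 (edgeR adjusted p = 0.36), -1.58 for Scarb1 (edgeR adjusted p = 0.443) and -1.67 for Cyp17a1 (edgeR adjusted p = 0.499). None passed the test. With 1 library left out the interaction lay between -3.88 and -2.44 for Klk1b21, -1.96 and -1.16 for Scarb1, and -2.43 and -1.16 for Cyp17a1. The genes were picked for opposite directions in the genotypes, so the sign in these runs was fixed by that choice.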

How the results depend on the processing

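Over 125 gene results and 1168 alternative values, 44 turned the direction, 30 of them on leaving out a library, 24 lost a call and 84 gained one; the cause was not tested. In homozygous against heterozygous testis, where edgeR called 0 genes, DESeq2 called 717 and 1 Leydig cell gene, no filter on low counts 361 genes, and the counts without 1 library lay between 73 and 1273 genes and between 0 and 1 Leydig cell gene. In homozygous against heterozygous IP (4042 genes, 4 Leydig cell genes), scaling to Sertoli cell markers called 2 Leydig cell genes, and without 1 library the counts lay between 2069 (without replicate 1 of heterozygous IP) and 5414 genes and between 3 and 4 Leydig cell genes. In homozygous IP against testis (438 genes, 1 Leydig cell gene), DESeq2 called 1319 and 4, no filter 1469 and 3, Sertoli scaling 0 Leydig cell genes, and the counts without 1 library lay between 89 and 4556 genes and between 0 and 5 Leydig cell genes. In heterozygous IP against testis (0 genes), DESeq2 called 602, no filter 1, and the counts without 1 library lay between 11 and 7278 genes and between 0 and 5 Leydig cell genes. For the interaction (0 genes), DESeq2 called 242, and without 1 library between 0 and 259 genes were called. Where 1 library of a group was left out, the lone library was assumed to vary like the other group.

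No label pairs the replicate numbers, and there are only 2 pairs. Deviations of same-numbered libraries correlated at 0.618 between the testis groups, 0.113 between the IPs, -0.132 for homozygous IP and testis and -0.0176 for heterozygous IP and testis. With the replicate block, edgeR called 943 genes and 1 Leydig cell gene in testis (Klk1b21, log2 fold change 2.71, adjusted p = 0.00933), 1010 and 3 in homozygous IP against testis, and 194 genes in heterozygous IP against testis. A crossed replicate block, added after seeing the data, called 1787 genes and 4 Leydig cell genes in homozygous IP against testis.

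These log2 fold changes turned sign. Scaling to Sertoli cell markers gave, in testis, -0.081 for Star, -0.52 for Pde8a, -0.58 for Gramd1b, -0.32 for Cyb5b, -0.28 for Hsd3b7, -0.029 for Mrap and -0.0049 for Mrc1; -0.25 for Cyp11a1 between the IPs; 0.10 for Hsd3b1 and 0.37 for Hsd3b6 in homozygous IP against testis; and 0.14 for Hsd17b3 in heterozygous IP against testis. The replicate block gave -0.015 for Pde8a and 0.093 for Cyb5r3 in testis, and no filter gave -0.071 for Hsd3b1 in the interaction. Leaving out 1 library gave these ranges. In testis they were -0.35 to 0.40 for Pde8a, -0.077 to 0.24 for Gramd1b, -0.64 to 0.88 for Cyb5r3, -1.04 to 0.42 for Ldhc, -0.20 to 2.90 for Mrap, -0.0039 to 1.97 for Myh11 and -1.34 to 0.59 for Cd163. Between the IPs they were -0.43 to 0.29 for Star, -0.26 to 0.55 for Cyp11a1, -1.09 to 0.14 for Cyp17a1, -1.27 to 0.022 for Klk1b21 and -0.91 to 0.48 for Hsd3b7. In homozygous IP against testis the range was -0.59 to 0.056 for Hsd3b6. In heterozygous IP against testis they were -1.11 to 0.048 for Star, -1.02 to 0.24 for Hsd3b6 and -0.61 to 0.29 for Hsd17b3. In the interaction they were -0.15 to 0.12 for Hsd3b1, -0.54 to 0.81 for Hsd3b6 and -1.83 to 0.045 for Lhcgr. Klk1b21 rested on as few as 9 reads in a library, which limits its precision.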
